A study of Rattus norvegicus with 18 samples.

Results

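Gene expression in whole rat lung 6 hours after the last exposure to cigarette smoke is described here from 6 of the 18 samples of a series on the time course of smoke effects. The 6 samples are those whose title gives 6 hours, at both smoke doses and after 2, 7 or 13 weeks of exposure. Rats breathed diluted cigarette smoke through the nose alone at 600 (high dose) or 300 (low dose) µg total particulate matter per litre, in 2 sessions of 1 hour a day on 5 days a week, and the control rats breathed conditioned fresh air in the same way. The lungs of the other 12 samples were taken 2 or 20 hours after exposure. Each sample is a pool of RNA from 4 smoke-exposed rats, read on 2-colour arrays against a pool of RNA from 4 air rats of the same number of weeks and hours. The labels used here give no strain, sex or age of the rats, and no clock time of collection.

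A value is the log2 of the ratio of smoke-exposed over air lung, so that 1 stands for a level 2-fold higher than in air and -1 for a level 2-fold lower. The high-dose and the low-dose sample of a duration share 1 control pool, which leaves 3 control pools at 6 hours. Their values were therefore averaged to a single value per duration, and the 3 durations serve as the replicates (n = 3, error as SE of the limma fit across all genes). No condition was sampled more than once, so this spread holds the error between pools of animals as well as any real change with the weeks of exposure, and p-values measure the spread between these samples alone. Smoke carried the same dye throughout. A constant dye effect of a gene thus adds to its value against air, but cancels between hours and between doses. The 6 samples held values for 3919 to 4583 named genes. The low-dose sample of 2 weeks held the fewest and stood apart, with correlations over genes of 0.144 to 0.411 with the other 5 samples, against 0.264 to 0.589 among those 5. List counts given here that change by over 1.5 times without it are given beside them.

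Smoke holds polycyclic aromatic hydrocarbons, which bind the aryl hydrocarbon receptor (AhR), a transcription factor that switches on enzymes for their oxidation and conjugation. Its oxidants and electrophiles release the factor NRF2, which drives genes for antioxidant defence. Inhaled particles are taken up by alveolar macrophages, which send out chemokines that draw neutrophils from the blood. The lung also keeps daily time through the transcription loop of the circadian clock, in which Bmal1 drives repressors that act back on it.

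Of 3842 genes with a value in all 6 samples, 165 passed limma against air at a Benjamini-Hochberg adjusted p under 0.05 (4.29%). Higher in smoke were 109 (2.84%) and lower were 56 (1.46%), and 145 of the 165 had 1 sign in all 6 samples. Of all 3842 genes, 6.77% were above air in all 6 samples and 5.49% were below. The 165 were chosen by the mean of these same samples, so the count of shared signs is no separate support. An unadjusted p under 0.05 was found for 684 genes. A change of at least 2-fold was reached by 13 genes that rose and 2 that fell. The count rests on having all 3 durations: it was 22 when the 2 week samples were left out, 54 when those of 7 weeks were and 5 when those of 13 weeks were. Cyp1a1, Aldh3a1, Nqo1 and Cxcl1 passed in all 3 of these fits, and every other call against air was lost in at least 1 of them. An exact sign-flip permutation test of 3 values cannot go below a two-sided p of 0.25, so the calls rely on the spread that limma shares between genes.

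**Figure D1:**
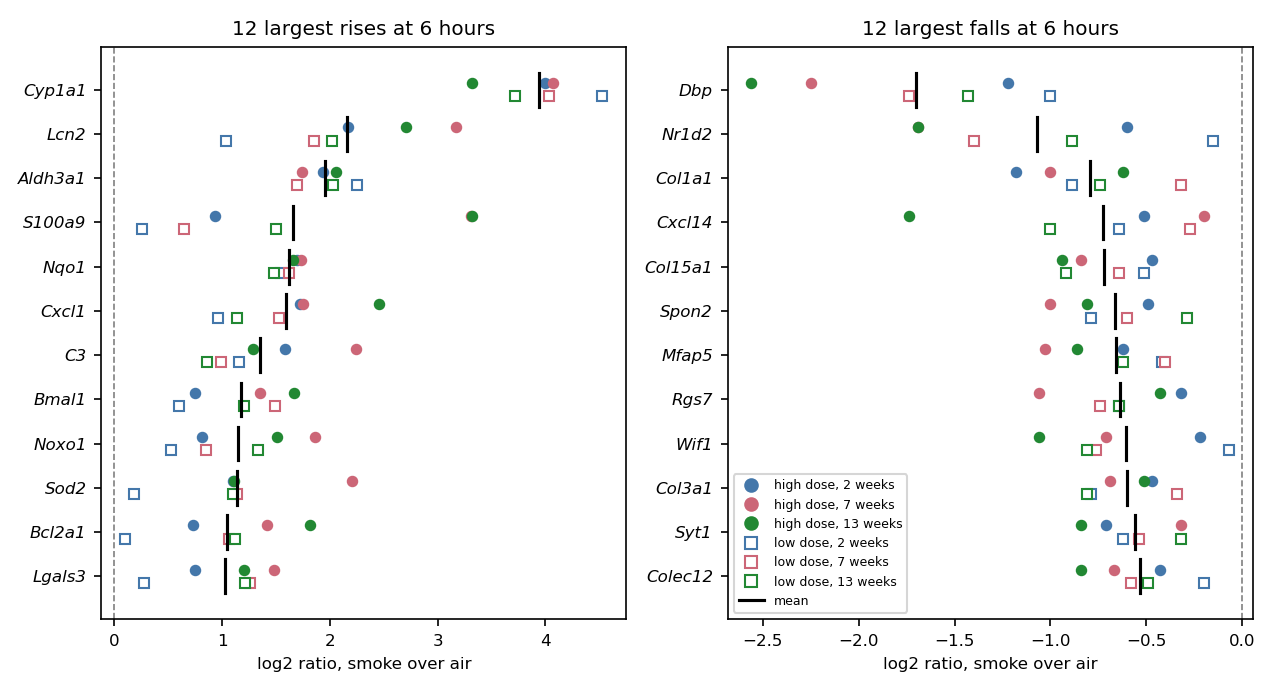
Log2 ratios of smoke over air (x axis) 6 hours after exposure for the 12 largest rises (left) and 12 largest falls (right) among called genes whose 6 samples share a sign. Each circle or square is 1 sample, filled for the high dose and open for the low dose, coloured by weeks of exposure, and the black bar is the mean. Cyp1a1 stands apart with all 6 samples between 3.32 and 4.53, and Dbp spans -2.56 to -1.0.

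The enzymes that AhR switches on were the largest group of rises by size. Cyp1a1, the P450 enzyme that attacks these hydrocarbons first, stood at 4.00, 4.07 and 3.32 at the high dose after 2, 7 and 13 weeks, and at 4.53, 4.03 and 3.72 at the low dose. The 2 doses overlapped, and no sample was near air. The mean was 3.94 ± 0.12, a level 15.4-fold above air (limma adjusted p = 2.97e-07). Aldh3a1, a dehydrogenase of reactive aldehydes, stood at 1.94, 1.74 and 2.06 at the high dose and at 2.25, 1.70 and 2.03 at the low dose, which is 3.87-fold above air. Nqo1, a quinone reductase driven by both AhR and NRF2, varied least, from 1.66 to 1.73 at the high dose and from 1.48 to 1.62 at the low dose (3.08-fold, adjusted p = 2.84e-06). The glucuronosyltransferase Ugt1a6 rose by 0.43 ± 0.08. That call was lost at either dose alone (limma adjusted p = 0.107 high, 0.143 low) and with any 1 duration left out (adjusted p = 0.106 to 0.368). It was also lost without the low-dose 2 week sample (adjusted p = 0.0742). The Ugt1a genes share most of their exons, so a probe may read more than 1 of them. In all, 4 of 6 tested AhR targets and partners rose and 0 fell, against 2.84% and 1.46% of all genes, with a list median of 1.03 against 0.00 over all genes. Cyp1b1, a further AhR target, had a mean of 0.02, and the receptor gene Ahr itself had 0.18, neither past the threshold.

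At 6 hours these enzymes lay between their 2 hour and 20 hour levels. Cyp1a1 averaged 5.74 at 2 hours, 3.94 at 6 hours and -0.22 at 20 hours, and Aldh3a1 averaged 5.33, 1.95 and 0.32 at the same times. Nqo1 averaged 2.71, 1.62 and 0.30. Fitted on all 18 samples as 9 control-pool means with weeks as a covariate, Cyp1a1 was lower at 6 hours than at 2 hours by -1.79 ± 0.33 (limma adjusted p = 0.0152). It was higher at 6 hours than at 20 hours by 4.17 ± 0.33 (adjusted p = 1.59e-05). Aldh3a1 lost more by 6 hours, with -3.37 ± 0.15 against 2 hours (adjusted p = 7.44e-08) and 1.64 ± 0.15 against 20 hours. Nqo1 differed by -1.09 ± 0.10 from 2 hours and by 1.32 ± 0.10 from 20 hours. Of 5 AhR genes with values in all 18 samples these 3 were lower than at 2 hours (1.26% of all 3560 genes tested were) and higher than at 20 hours (0.983% of all genes were). After quantile normalization between arrays, the sign of Aldh3a1 against the mean of 2 and 20 hours turned round, from -0.87 to 0.36.

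NRF2 and oxidative stress genes rose by smaller amounts, apart from Nqo1. Of 25 tested, 7 rose and 0 fell (median 0.28), where 2.84% and 1.46% of all genes did. Sod2, the mitochondrial superoxide dismutase, stood at 1.10, 2.21 and 1.11 at the high dose and at 0.18, 1.14 and 1.10 at the low dose. All 6 values were above air, with the low-dose 2 week sample the lowest (mean 1.14 ± 0.15). The metallothionein Mt1 (0.68 ± 0.12), which was below air in the low-dose 2 week sample, and the ferritin light chain Ftl1 (0.64 ± 0.10) also rose. Without the low-dose 2 week sample the list had 11 rises of 25. The 7 rises became 1 at the low dose alone and 6 at the high dose alone. They became 1, 2 and 1 with the samples of 2, 7 or 13 weeks left out. The haem oxygenase Hmox1, which breaks down haem, had a mean of 0.38 ± 0.11 and did not pass (adjusted p = 0.0858), but did in the joint fit over all hours (adjusted p = 0.00448) and without the low-dose 2 week sample (adjusted p = 0.0498). Gclc and Gclm, the subunits of the enzyme that limits glutathione synthesis, had 0.28 and 0.04 and did not pass either. Lower at 6 hours than at 2 hours were 6 of 25, where 1.26% of all genes were. These were Hmox1 by -0.65 ± 0.10, Gclc by -0.65, Gclm by -0.70 and Nqo1. The others were the thioredoxin reductase Txnrd1 by -0.51 and Nfe2l2, the gene of NRF2, by -0.54. The 2 hour means of the 6 were 1.03, 0.94, 0.74, 2.71, 0.85 and 0.54 in that order.

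Conjugating and other oxidising enzymes moved both ways. Of 12 glutathione S-transferases, which couple glutathione to electrophiles, 3 rose and 1 fell (median 0.13), where 2.84% and 1.46% of all genes did. Gstp1 rose by 0.81 ± 0.08 and stood between 0.73 and 1.14 at the high dose and between 0.56 and 0.89 at the low dose. Gstt2 (0.49) and Gsta2 (0.45) rose as well, and Gstm5 fell by 0.47 ± 0.08. The 4 probes averaged for Gsta2 had 0.13 to 0.86, and the members of this family are close in sequence. The 3 rises became 1 at the low dose alone and 2 at the high dose alone. They became 1, 1 and 0 with the samples of 2, 7 or 13 weeks left out. Of 18 other xenobiotic enzymes, 1 rose and 4 fell (median -0.13), against the same shares of all genes. The 4 falls became 0 at the low dose alone and 3 at the high dose alone. They became 0, 2 and 0 with the samples of 2, 7 or 13 weeks left out. The falls were 2 cytochrome P450 enzymes, Cyp2a3 (-0.53 ± 0.11) and Cyp4b1 (-0.48 ± 0.07), the sulfotransferase Sult1a1 (-0.49 ± 0.09) and the alcohol dehydrogenase Adh1c (-0.42 ± 0.09). The Adh1c call was lost at either dose alone (limma adjusted p = 0.215 high, 0.0839 low). It was also lost with any 1 duration left out (adjusted p = 0.0792 to 0.451) and without the low-dose 2 week sample (adjusted p = 0.165). Sult1a1 had averaged 0.27 at 2 hours and averaged 0.23 at 20 hours, so that it was below air at 6 hours alone of the 3 means (-0.73 ± 0.09 against the mean of 2 and 20 hours, adjusted p = 8e-04). Por, the reductase that feeds electrons to every microsomal P450, averaged 0.82 at 2 hours, -0.26 at 6 hours and 0.31 at 20 hours. It did not pass against air at 6 hours (adjusted p = 0.216), but was lower than the mean of 2 and 20 hours by -0.83 ± 0.12 (adjusted p = 0.00415). That call was lost at the low dose alone (adjusted p = 0.0624) and without the 7 week (adjusted p = 0.101) or the 13 week samples (adjusted p = 0.0545).

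**Figure D2:**
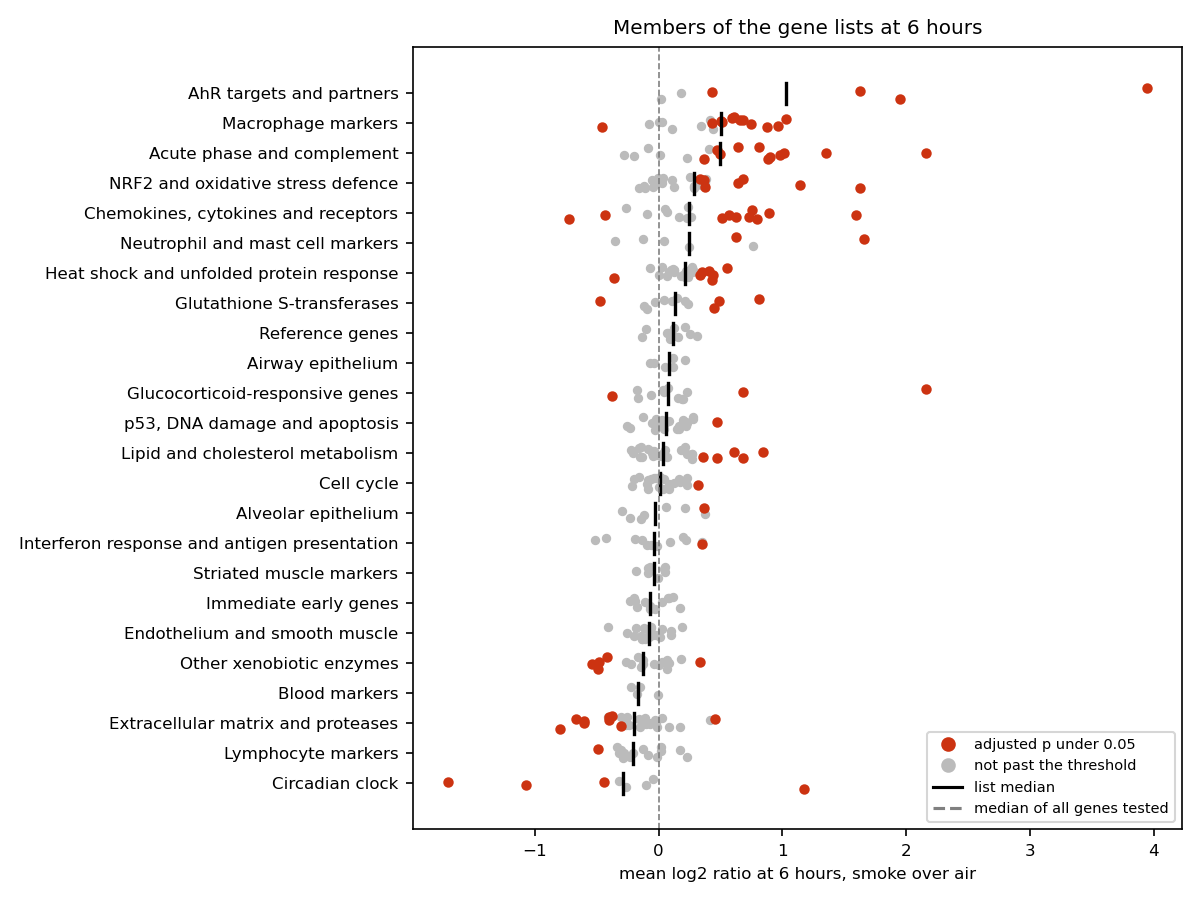
Mean log2 ratio of smoke over air at 6 hours (x axis) for each tested member of 24 gene lists (rows, sorted by median). Red points passed limma at an adjusted p under 0.05, grey points did not, black bars are list medians, and the dashed line is the median of all genes tested. The AhR list has the highest median (1.03, over 6 genes) and the circadian clock list the lowest (-0.29, over 8 genes). At the high dose alone, which is not drawn, their medians are 0.32 over 8 genes and -0.112 over 10 genes. The highest is then 0.733 in the acute phase and complement list, and the lowest -0.365 in the lymphocyte list.

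Acute phase and complement genes, which serve innate defence in blood and tissue, rose in most cases. Lcn2, a secreted protein that withholds iron from bacteria, stood at 2.17, 3.17 and 2.71 at the high dose and at 1.04, 1.85 and 2.02 at the low dose. Each high-dose value was above the low-dose value of the same duration, and the mean was 4.47-fold above air (2.16 ± 0.15, adjusted p = 7.2e-05). Complement C3, the central protein of the complement cascade, stood at 1.58, 2.24 and 1.29 at the high dose and at 1.16, 0.99 and 0.86 at the low dose. The doses did not overlap, and the mean was 2.55-fold above air. Kng2 (1.01 ± 0.09), a kininogen, and C4bpa (0.98 ± 0.08), which restrains complement, followed. In the acute phase and complement list, 11 of 17 genes rose and 0 fell (median 0.49), where 2.84% and 1.46% of all genes did. The 11 rises became 3 at the low dose alone and stayed 11 at the high dose alone. They became 4, 8 and 1 with the samples of 2, 7 or 13 weeks left out. Of the 17, 12 were above air in all 6 samples, where 6.77% of all genes were. Lcn2 was level over time, with 2.19 at 2 hours, 2.16 at 6 hours and 2.17 at 20 hours, and a difference of -0.03 ± 0.13 from 2 hours. C3 was lower at 6 than at 2 hours by -0.93 ± 0.13 (adjusted p = 0.00239).

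Among chemokines, cytokines and their receptors 8 of 18 rose and 2 fell (median 0.25), where 2.84% and 1.46% of all genes did. Without the low-dose 2 week sample 8 of 20 rose and 1 fell. The 8 rises became 1 at the low dose alone and 7 at the high dose alone. They became 3, 5 and 1 with the samples of 2, 7 or 13 weeks left out. Cxcl1, which attracts neutrophils, stood at 1.72, 1.75 and 2.46 at the high dose and at 0.96, 1.53 and 1.14 at the low dose. All high-dose values were above all low-dose values, with a mean 3.02-fold above air (1.59 ± 0.09, adjusted p = 2.29e-05). The other named rises were Ccl9 (0.89 ± 0.10) and Ccl3 (0.79 ± 0.10), which attract monocytes and macrophages, and Il1b (0.76 ± 0.12), the inflammatory cytokine interleukin 1 beta. Il1b averaged 0.14 at 2 hours and 0.39 at 20 hours, and was higher at 6 hours than their mean by 0.50 ± 0.08 (adjusted p = 0.012). Il1b and Cxcl1 were the 2 members of this list higher at 6 hours than the mean of 2 and 20 hours. Such calls were 0 at either dose alone or with any 1 duration left out, and 1 without the low-dose 2 week sample. Il1b passed against 2 hours alone (limma adjusted p = 0.00582) but not against 20 hours alone (adjusted p = 0.0977). Cxcl1 had means of 1.48, 1.59 and 0.785 at 2, 6 and 20 hours. It passed against 20 hours alone (adjusted p = 0.00457) but not against 2 hours alone (adjusted p = 0.723). Cxcl14, a chemokine that epithelium makes at rest, fell by 0.73 ± 0.17, with -0.51, -0.20 and -1.74 at the high dose and -0.64, -0.27 and -1.0 at the low dose. It was lowest after 13 weeks at both doses, and without those samples the mean was -0.41 (adjusted p = 0.416). The call was also lost at either dose alone (adjusted p = 0.13 high, 0.172 low), after quantile normalization (adjusted p = 0.0769), with a robust fit (adjusted p = 0.215) and without the low-dose 2 week sample (adjusted p = 0.0643). Ccl2, a monocyte attractant, had 0.26 ± 0.08 and did not pass.

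Of the markers of macrophages, the cells that take up inhaled particles, most rose. Of 19 tested, 11 rose and 1 fell (median 0.51), where 2.84% and 1.46% of all genes did. The 11 rises became 1 at the low dose alone and 9 at the high dose alone. They became 3, 7 and 0 with the samples of 2, 7 or 13 weeks left out. Lgals3, a lectin of activated macrophages, stood at 0.75, 1.48 and 1.20 at the high dose and at 0.28, 1.26 and 1.21 at the low dose (1.03 ± 0.14). The lysosomal glycoprotein Cd68 rose by 0.97 ± 0.10, the lysosomal protease Ctsd by 0.88 ± 0.10 and the endotoxin co-receptor Cd14 by 0.75 ± 0.07. Adgre1, which encodes the surface protein F4/80, fell by 0.45 ± 0.08, and Csf1r, the growth factor receptor that macrophages depend on, had -0.08. In whole lung, more cells of a type and more RNA per cell cannot be told apart. Of 28 lipid genes 5 rose and 0 fell (median 0.04), against 2.84% and 1.46% of all genes. Among the 5 were Fabp5 (0.84 ± 0.11), a carrier of fatty acids, and Lpl (0.68 ± 0.09), which frees them from lipoproteins. The scavenger receptor Cd36 (0.61 ± 0.08) and the cholesterol exporter Abcg1 (0.47 ± 0.10) rose as well. Lpl and Cd36 stand in both lists. The 5 rises of lipid genes became 0 at the low dose alone and 3 at the high dose alone. They became 0, 2 and 0 with the samples of 2, 7 or 13 weeks left out. The matrix-degrading protease Mmp12 of macrophages had 0.42 ± 0.11 and did not pass (adjusted p = 0.0636), but did in the joint fit (adjusted p = 0.00252) and with a robust fit (adjusted p = 0.0496). One sample, at the high dose after 13 weeks, gave it 1.54, and the other 5 lay between -0.12 and 0.71.

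Of 7 tested neutrophil and mast cell markers, 2 rose against air and 0 fell, where 2.84% and 1.46% of all genes did. Higher at 6 hours than the mean of 2 and 20 hours were 3, against 0.758% of all genes. Against 2 hours alone 3 were higher at 6 hours, and against 20 hours alone 1 was. Of all genes, 0.815% and 0.983% were higher in these 2 comparisons. Without the low-dose 2 week sample 1 of 8 rose against air. S100a9, a calcium-binding protein that neutrophils carry in large amounts, stood at 0.93, 3.31 and 3.32 at the high dose and at 0.26, 0.65 and 1.5 at the low dose. All 6 values were above air, and those at the high dose after 7 and 13 weeks stood far above the rest (mean 1.66 ± 0.26, adjusted p = 0.00853). The call was lost without the 7 week samples (1.5, adjusted p = 0.116), without the 13 week samples (1.29, adjusted p = 0.368), at the low dose alone (0.80, adjusted p = 0.269) and with a robust fit (adjusted p = 0.263). S100a8, its partner in the calprotectin dimer, stood at 0.04, 1.65 and 2.17 at the high dose and at 0.08, -0.09 and 0.74 at the low dose, and did not pass against air (adjusted p = 0.0715). It did in a joint fit over all hours (adjusted p = 9.44e-05). Averaged over doses, S100a9 was 0.16 at 2 hours, 1.66 at 6 hours and 1.04 at 20 hours. S100a8 was -0.68, 0.77 and 0.26 at those times. Fcnb, a ficolin of neutrophil granules, was -0.82, 0.24 and -0.39, below air in all 6 samples at 2 hours and in all 6 at 20 hours.

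Against the mean of 2 and 20 hours, S100a9 was higher at 6 hours by 1.06 ± 0.15 (adjusted p = 0.0034), S100a8 by 0.98 ± 0.10 (adjusted p = 4.6e-04) and Fcnb by 0.85 ± 0.12 (adjusted p = 0.00289). These were the 3 markers called, where 0.758% of all 3560 genes were higher at 6 hours. At the low dose alone 0 of 7 were called. The calls of S100a9 and S100a8 rest on weeks as a covariate, since the pool means of both genes were higher after more weeks at every hour. Without it adjusted p was 0.478 for S100a9 and 0.319 for S100a8. S100a9 and S100a8 were also lost at the low dose alone (0.49 and 0.50, adjusted p = 0.682 and 0.525), and S100a9 was lost without the 2 week samples (adjusted p = 0.0757) or the 7 week samples (adjusted p = 0.0821). Fcnb was called in each fit that left out 1 duration, but not at the low dose alone (0.75, adjusted p = 0.15). The markers did not move as 1 block. Cxcr2, the receptor for Cxcl1, rose against air (0.63 ± 0.11) and did not pass between hours (0.16 ± 0.12). Its call against air was lost at either dose alone (limma adjusted p = 0.112 high, 0.0632 low). It was also lost with any 1 duration left out (adjusted p = 0.096 to 0.335) and without the low-dose 2 week sample (adjusted p = 0.0864). The peroxidase Mpo had 0.05 against air, and Retnlg had -0.35 ± 0.12 and did not pass. Among blood markers 0 of 4 passed, with a median of -0.16.

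**Figure D3:**
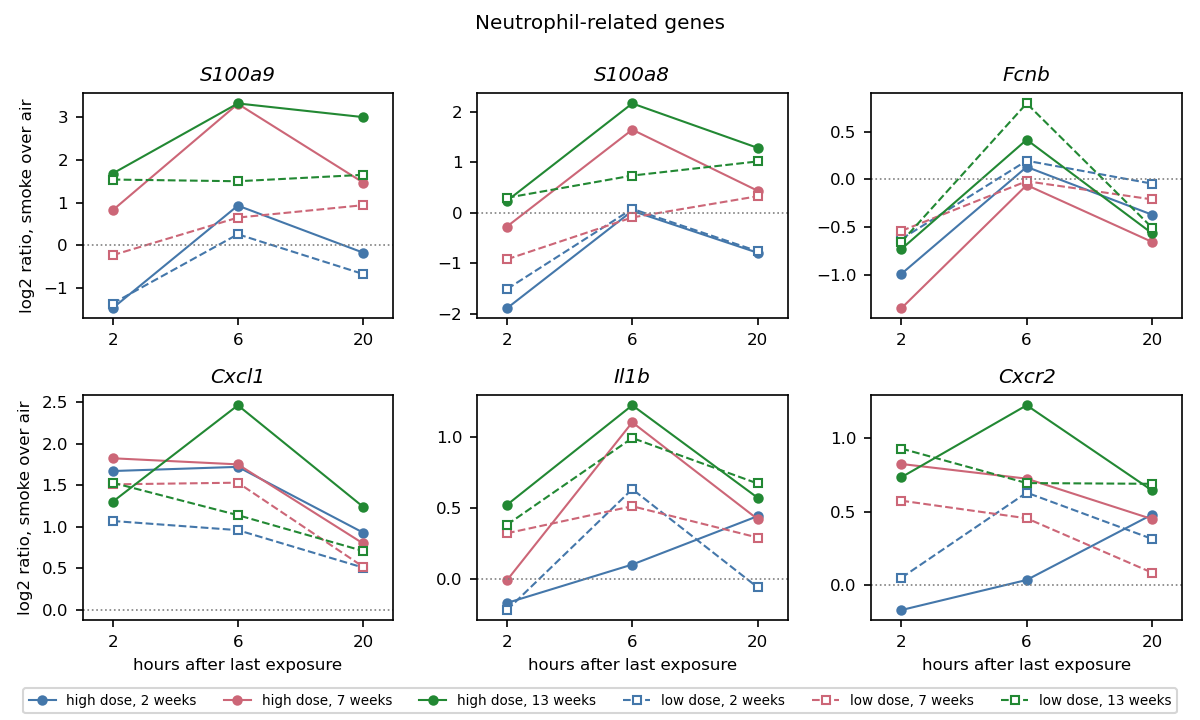
Log2 ratio of smoke over air (y axis) at 2, 6 and 20 hours after the last exposure (x axis, times evenly spaced, not to scale) for 6 genes linked to neutrophils and their recruitment. Each line joins the 3 pools of 1 dose and 1 duration of exposure, which are different animals, filled circles for the high dose and open squares for the low dose. S100a9 and S100a8 reach 3.32 and 2.17 at 6 hours at the high dose after 13 weeks, and Fcnb is below air in every sample at 2 and 20 hours.

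Other cell type markers moved little at 6 hours. Among 15 lymphocyte markers 0 rose and 1 fell (median -0.21), where 2.84% and 1.46% of all genes did. The fall was Cd79b of the B cell receptor, with -1.06, -0.84 and -0.89 at the high dose but 0.39, -0.56 and 0.03 at the low dose (mean -0.49 ± 0.09). Cd79b did not pass at the low dose alone (-0.05, adjusted p = 0.962), with the control pool as a random block (adjusted p = 0.132), in the joint fit over all hours (adjusted p = 0.0747) or with any 1 duration left out (adjusted p = 0.116 to 0.348). Without the low-dose 2 week sample 3 of 16 lymphocyte markers fell. The lung itself was represented by 8 alveolar and 6 airway markers with values, of which 1 rose, the surfactant protein Sftpa1 (0.37 ± 0.09, adjusted p = 0.049), and 0 fell. Foxj1, a regulator of cilia, and the mucin Muc1 were the largest airway values, at 0.21 and 0.12. Among 21 endothelial and smooth muscle genes 0 passed, and the receptor partner Ramp3 (-0.41) and VE-cadherin Cdh5 (-0.26) had the largest values. Among 8 striated muscle markers 0 passed either, with all means between -0.18 and 0.05. The files hold ratios and no levels, so how much of each cell type the lungs held is not known.

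The circadian clock genes held the largest fall at 6 hours and the largest differences from the mean of 2 and 20 hours. Bmal1, the activator of the loop, stood at 0.75, 1.35 and 1.67 at the high dose and at 0.60, 1.49 and 1.20 at the low dose. All 6 values were above air, the 2 week values lowest at both doses (mean 1.18 ± 0.14, 2.26-fold above air, adjusted p = 0.00147). Dbp, a transcription factor that Bmal1 drives and that carries daily time to many output genes, stood at -1.22, -2.25 and -2.56 at the high dose and at -1.0, -1.74 and -1.43 at the low dose. It was 3.25-fold below air (-1.70 ± 0.15, adjusted p = 4.26e-04), and each high-dose value was below the low-dose value of its duration. Nr1d2, which encodes the repressor REV-ERB beta, stood at -0.60, -1.69 and -1.69 at the high dose and at -0.15, -1.40 and -0.89 at the low dose (-1.07 ± 0.18, adjusted p = 0.0113). It was again nearest to air after 2 weeks. The calls of Bmal1 (adjusted p = 0.272), Dbp (adjusted p = 0.176) and Nr1d2 (adjusted p = 0.416) against air were lost without the 13 week samples, and that of Nr1d2 also without the 7 week samples (-0.83, adjusted p = 0.113) and with a robust fit (adjusted p = 0.124). At the low dose alone Bmal1 (adjusted p = 0.0629) and Nr1d2 (adjusted p = 0.257) did not pass against air.

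Bmal1, Dbp, Nr1d2, Tef and Bhlhe40 changed the sign of their means between hours, and these 5 of the 8 tested clock genes passed. Bmal1 averaged -1.20 at 2 hours, 1.18 at 6 hours and -2.00 at 20 hours. Dbp ran the other way with 0.95, -1.70 and 2.22, as did Nr1d2 with 0.30, -1.07 and 1.63. In each of the 6 combinations of dose and weeks, Bmal1 was above air at 6 hours and below it at 2 and at 20 hours. Relative to the mean of 2 and 20 hours, Bmal1 was higher at 6 hours by 2.77 ± 0.17 and Dbp lower by -3.28 ± 0.21 (limma adjusted p = 3.95e-06 for both), and Nr1d2 lower by -2.03 ± 0.14 (adjusted p = 5.33e-06). These were the 3 largest differences of all 3560 genes tested. Tef, a relative of Dbp, and Bhlhe40, a repressor of Bmal1-driven genes, were near air at 6 hours, with -0.32 ± 0.09 and -0.26 ± 0.07, and did not pass there. Tef was lower at 6 hours than the mean of 2 and 20 hours by -0.97 ± 0.11 (adjusted p = 7.23e-04), and Bhlhe40 by -0.74 ± 0.11 (adjusted p = 0.00523). Against 2 hours alone Bhlhe40 did not pass (adjusted p = 0.062). Thus 1 clock gene was higher and 4 were lower at 6 hours, against 0.758% and 0.73% of all genes. Against air 1 of 8 rose and 3 fell, where 2.84% and 1.46% of all genes did. Without the low-dose 2 week sample 2 of 10 rose and 3 fell. The same 5 were called in fits of the high-dose samples alone and of the low-dose samples alone. Bhlhe40 was lost without the 2 week samples (-0.58, adjusted p = 0.101).

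Nr1d1, which encodes REV-ERB alpha, did not follow Nr1d2. It stood at -0.26, -0.89 and -0.53 at the high dose and at -0.22, -0.36 and -0.40 at the low dose, a fall of 0.44 ± 0.09 (adjusted p = 0.0218). Its means were -0.67 at 2 hours, -0.44 at 6 hours and -0.23 at 20 hours, and its difference from the mean of the other times was 0.01 ± 0.09. Nr1d1 overlaps the thyroid hormone receptor gene Thra on the opposite strand, and Thra had a mean of -0.49 ± 0.11 at 6 hours. With no statement on the strand of the probes, signals of the 2 genes cannot be told apart. The kinases Csnk1d and Csnk1e, which tune the loop, had -0.10 and -0.05 against air and did not pass. Per2 was not tested, for want of values.

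**Figure D4:**
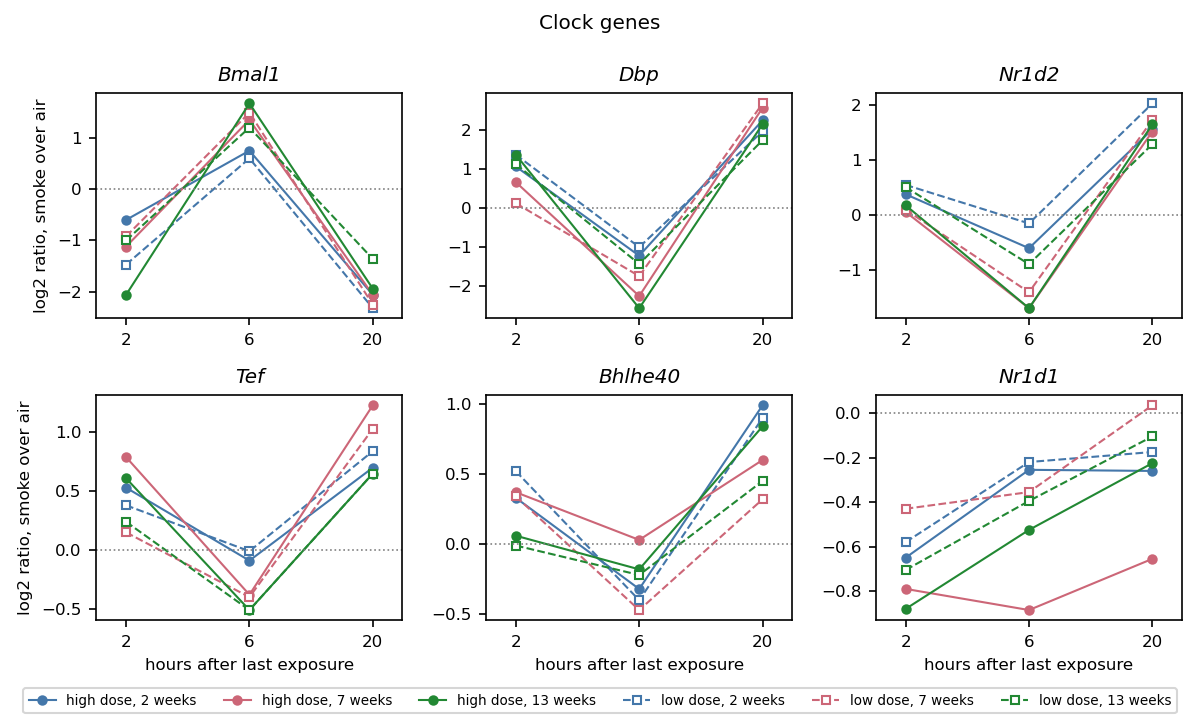
Log2 ratio of smoke over air (y axis, scaled per gene) at 2, 6 and 20 hours after the last exposure (x axis, times evenly spaced, not to scale) for 6 circadian clock genes. Filled circles are the high dose, open squares the low dose, colours the weeks of exposure, and lines join pools of different animals. Bmal1 is above air at 6 hours in all 6 samples and below it at 2 and 20 hours, Dbp does the reverse, and Nr1d1 does neither.

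The promoters of the clock genes that passed a test are shown because these genes moved in opposite directions at the same hours. RefSeq sequence (GRCr8) for the 250 bases before the gene start was found for all 6 of them. The E-box CACGTG, which the Bmal1 partnership binds, and AGGTCA, the half-site shared by REV-ERB and ROR proteins, were searched on both strands and are in capitals. AGGTCA was added to the search after the values were seen. On the chromosomes the windows are chr1:176766078-176766327 for Bmal1, chr15:9954784-9955033 for Nr1d2, chr7:115206577-115206826 for Tef and chr4:143174200-143174449 for Bhlhe40, all on the plus strand.
Bmal1: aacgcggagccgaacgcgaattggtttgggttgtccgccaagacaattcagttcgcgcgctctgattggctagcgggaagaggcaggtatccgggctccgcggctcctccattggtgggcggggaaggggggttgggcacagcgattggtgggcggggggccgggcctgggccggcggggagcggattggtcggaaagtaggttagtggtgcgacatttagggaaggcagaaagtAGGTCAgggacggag
Nr1d2: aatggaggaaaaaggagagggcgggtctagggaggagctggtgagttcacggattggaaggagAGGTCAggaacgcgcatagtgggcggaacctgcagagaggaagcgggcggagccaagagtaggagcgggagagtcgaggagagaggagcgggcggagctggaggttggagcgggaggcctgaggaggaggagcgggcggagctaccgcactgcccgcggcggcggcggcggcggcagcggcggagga
Tef: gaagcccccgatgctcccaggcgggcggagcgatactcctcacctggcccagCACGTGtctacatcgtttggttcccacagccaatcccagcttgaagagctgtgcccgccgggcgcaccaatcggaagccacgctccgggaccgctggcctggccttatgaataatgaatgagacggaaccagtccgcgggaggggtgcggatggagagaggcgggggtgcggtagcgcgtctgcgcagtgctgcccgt
Bhlhe40: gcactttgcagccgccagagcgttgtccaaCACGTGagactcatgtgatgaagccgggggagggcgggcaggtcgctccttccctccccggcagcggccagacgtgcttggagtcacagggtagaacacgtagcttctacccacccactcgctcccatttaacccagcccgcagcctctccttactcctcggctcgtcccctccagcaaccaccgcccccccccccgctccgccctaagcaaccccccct
Bmal1 holds AGGTCA with its first base 15 bases before the start, and Nr1d2 holds it at 187 bases. This motif is thus in a gene that was higher at 6 hours and in a gene that was lower. Bhlhe40 holds the E-box at 220 bases and Tef at 198 bases before the start. Neither motif was found in these windows of Dbp and Nr1d1, and no copy overlapped another motif searched. Among 33469 rat promoter windows of the same length, 5.59% held CACGTG and 14.1% held AGGTCA. A match of letters is a description and does not show binding.

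The glucocorticoid-responsive list, which follows the daily rhythm of the adrenal hormone and stress, was split. Of 13 tested, 2 rose against air at 6 hours and 1 fell (median 0.08), where 2.84% and 1.46% of all genes did. The rises were Lcn2 and Mt1, which also stand in the inflammation and stress lists. The fall was Klf9, a transcription factor with a daily rhythm, at -0.38 ± 0.08. Tsc22d3, an anti-inflammatory protein that glucocorticoids induce, averaged 0.70 at 2 hours, -0.06 at 6 hours and 0.75 at 20 hours, a difference at 6 hours of -0.78 ± 0.15 (adjusted p = 0.0241). That call was lost at each dose alone (adjusted p = 0.154 high, 0.0624 low), with a robust fit (adjusted p = 0.0507) and without the 7 or the 13 week samples (adjusted p = 0.169 and 0.16). Fkbp5, another induced gene, had 0.81, 0.16 and 0.52 and did not pass (adjusted p = 0.145). Immediate early genes, which report fresh signalling, had 0 of 13 called against air (median -0.07). Junb (-0.23) and Nr4a2 (-0.20) were the largest.

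Hspa5, Hsp90b1 and Pdia4, chaperones of the endoplasmic reticulum that fold secreted proteins, averaged above air at 6 hours and below it at the other times. Hspa5, the chaperone BiP, stood at 0.26, 0.74 and 0.88 at the high dose and at 0.03, 0.45 and 0.23 at the low dose (0.43 ± 0.10, adjusted p = 0.0378). It averaged -0.29 at 2 hours and -0.16 at 20 hours, and its difference at 6 hours was 0.66 ± 0.09 (adjusted p = 0.00275). Hsp90b1, the chaperone GRP94, had means of -0.07, 0.41 and -0.30 at 2, 6 and 20 hours, with a difference of 0.60 ± 0.09 (adjusted p = 0.0034). The disulfide isomerase Pdia4 and the cytosolic Hsph1 were the other members higher at 6 hours, by 0.51 ± 0.09 and 0.54 ± 0.10. Herpud1, which helps to clear misfolded proteins from the same organelle, ran against them. It was below air in all 6 samples at 6 hours, from -0.42 to -0.29 at the high dose and from -0.60 to -0.06 at the low dose, and above air in all samples at the other hours. Its difference was -0.80 ± 0.09 (adjusted p = 6.41e-04). In the list of heat shock and unfolded protein response, 6 of 29 genes rose and 1 fell against air (median 0.22), where 2.84% and 1.46% of all genes did. Higher than the mean of 2 and 20 hours were 4 and lower was 1, against 0.758% and 0.73% of all genes. The 4 became 0 at the low dose alone, 2 at the high dose alone, and 1, 1 and 2 with the samples of 2, 7 or 13 weeks left out, while 1 was lower in each of these fits. Against air the 6 rises became 0 at the low dose alone and with any 1 duration left out.

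Genes of the extracellular matrix held the most falls of any list by count. Of 28 extracellular matrix and protease genes 8 fell and 1 rose (median -0.20), where 1.46% and 2.84% of all genes did. In all 6 samples 10 were below air, where 5.49% of all genes were. The 8 falls became 0 at the low dose alone and 4 at the high dose alone. They became 0, 3 and 0 with the samples of 2, 7 or 13 weeks left out. Col1a1, the main chain of collagen I, stood at -1.18, -1.0 and -0.62 at the high dose and at -0.89, -0.32 and -0.74 at the low dose (-0.79 ± 0.09, adjusted p = 0.00141). No sample reached air. Without the 2 week samples it had -0.67 (adjusted p = 0.0567) and without the 13 week samples -0.85 (adjusted p = 0.187), and at the low dose alone -0.65 (adjusted p = 0.122). The collagen Col3a1 (-0.60 ± 0.07) and Wif1 (-0.60 ± 0.13), a secreted Wnt inhibitor, also fell. Outside the list the largest falls held Col15a1 (-0.72 ± 0.09), a collagen of basement membranes, and the microfibril protein Mfap5 (-0.66 ± 0.08). Col15a1 was lower at 6 hours than at the other times by -0.54 ± 0.10 (adjusted p = 0.0211), whereas Col1a1, with -0.50 ± 0.18, did not pass (adjusted p = 0.226).

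Spon2, a matrix protein of innate immunity, went against that order. At 6 hours it stood at -0.49, -1.0 and -0.81 at the high dose and at -0.79, -0.60 and -0.29 at the low dose, below air in 6 of 6 samples (-0.66 ± 0.08, adjusted p = 0.00147). Its fall was deeper at the other times, with means of -1.55 at 2 hours and -1.20 at 20 hours. The difference at 6 hours was 0.71 ± 0.09 (adjusted p = 0.00107). That difference did not pass at the high dose alone (0.68, adjusted p = 0.0772). Against air Spon2 did not pass at the low dose alone (adjusted p = 0.139), without the 2 week samples (adjusted p = 0.0866) or without the 13 week samples (adjusted p = 0.155).

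Of the genes in no list, Noxo1, the organiser subunit of an NADPH oxidase that makes superoxide, rose by 1.15 ± 0.13, and Bcl2a1, a survival protein of inflammatory cells, by 1.04 ± 0.16. Noxo1 was higher at 6 hours than the mean of the other times by 0.48 ± 0.10 (adjusted p = 0.031). The 12 largest falls also held Rgs7 (-0.64), which shuts off G protein signals, the scavenger receptor Colec12 (-0.54) and Syt1 (-0.56), a calcium sensor of vesicle release. Gja1, the gap junction protein connexin 43, rose by 0.94 ± 0.12 at 6 hours, when its means at 2 and 20 hours were 0.04 and 0.14 (difference 0.85 ± 0.15, adjusted p = 0.016). This difference did not pass without the 2 week samples (adjusted p = 0.116), without the 7 week samples (adjusted p = 0.169) or at either dose alone (adjusted p = 0.0597 high, 0.241 low). G0s2, an inhibitor of fat breakdown, averaged -0.50, 0.34 and -0.42 at 2, 6 and 20 hours. It was below air in every sample at 2 and 20 hours and above it in every sample at 6 hours, a difference of 0.80 ± 0.10 (adjusted p = 0.00151). Antxr1, an anthrax toxin receptor, differed by 0.68 ± 0.14 (adjusted p = 0.0292), a call lost without the low-dose 2 week sample (adjusted p = 0.0735), at either dose alone (adjusted p = 0.0599 high, 0.47 low), and without the 7 week (adjusted p = 0.158) or 13 week samples (adjusted p = 0.131).

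Growth and damage lists were close to air. Of all genes tested, 2.84% rose and 1.46% fell. Among 21 cell cycle genes 1 rose, the mitotic kinase Aurka (0.32 ± 0.07), and 0 fell. Among 24 p53, DNA damage and apoptosis genes 1 rose, the stress gene Gadd45g (0.47 ± 0.08), and 0 fell. Among 12 interferon and antigen presentation genes 1 rose, the class II gene RT1-Da (0.35 ± 0.07), and 0 fell, against 2 that rose and 1 that fell without the low-dose 2 week sample. The 11 reference genes had 0 calls and a median of 0.12, led by Eef1a1 (0.31) and Gapdh (0.25).

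Over all genes, 53 of 3560 differed between 6 hours and the mean of 2 and 20 hours (limma adjusted p under 0.05, 1.49%), 27 higher (0.758%) and 26 lower (0.73%). In 51 of the 53 the 6 hour mean lay outside the other 2 means, and in 37 it had the sign opposite to both. The 53 were chosen by this same difference, which favours such a place, and the shares over all genes were not counted. These 2 counts are thus a description and no test. Of the 53, 31 were not called against air at 6 hours, among them Tef, Bhlhe40, Por, S100a8, Fcnb and G0s2. Of the 165 genes called against air, 155 had a value in all 18 samples, and 22 of these also differed from the other hours. Against 2 hours alone 74 genes differed (2.08%), 29 higher (0.815%) and 45 lower at 6 hours. Against 20 hours alone 54 differed (1.52%), 35 higher and 19 lower (0.534%), a split that became 39 higher and 36 lower after quantile normalization. Called against both were 21. Each time point had its own control pools, so these comparisons share no control animals between hours.

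**Figure D5:**
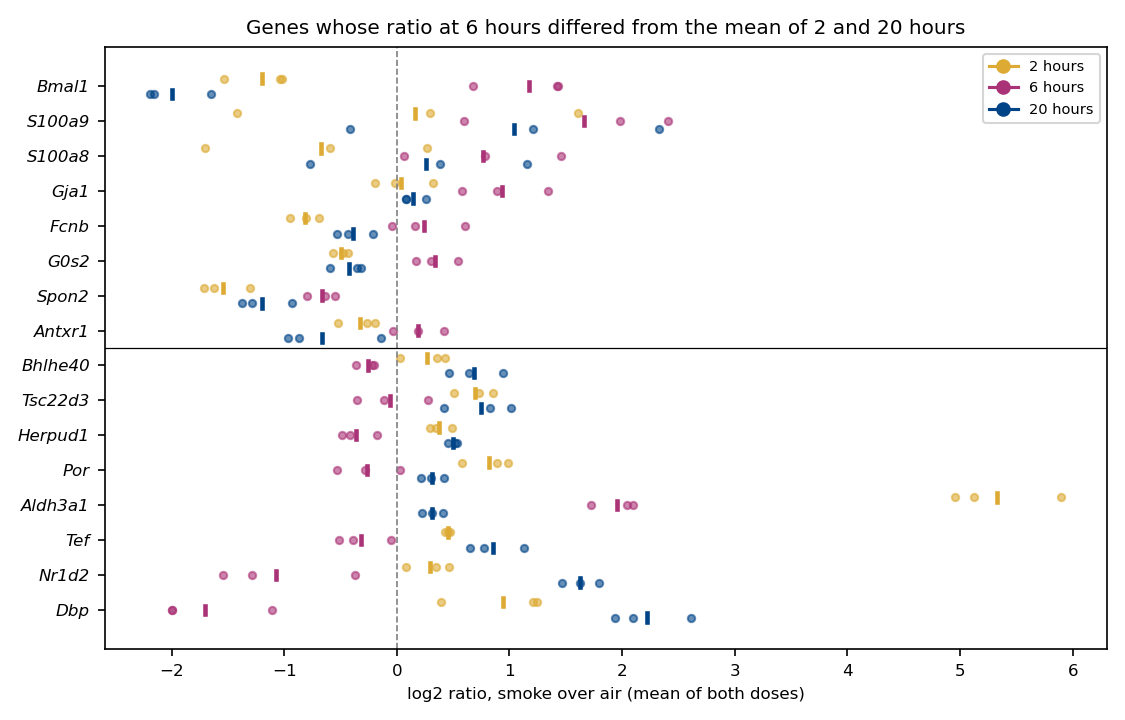
Log2 ratio of smoke over air (x axis, mean of both doses) at 2, 6 and 20 hours for the 8 genes most above (upper rows) and the 8 most below (lower rows) the mean of 2 and 20 hours at 6 hours. Points are the 3 durations of exposure and bars their mean, in yellow for 2 hours, purple for 6 hours and blue for 20 hours. Aldh3a1 is the row where the 6 hour mean (1.95) lies between the other means, and in the other 15 rows it lies beyond both.

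No gene passed between the doses at 6 hours. In the 3 differences of high minus low dose, which cancel the control pool, 0 of 3842 genes passed limma (0%), 249 had an unadjusted p under 0.05, and the smallest adjusted p was 0.0628, for Lcn2. Lcn2 averaged 2.68 at the high dose and 1.64 at the low dose, a difference of 1.05. With each array centred on its median (adjusted p = 0.0324) or with a robust fit (adjusted p = 0.0152) Lcn2 passed. S100a9 was higher at the high dose by 1.72 and passed after quantile normalization alone (adjusted p = 0.0302). The other genes with the smallest p were C4bpa (0.79) and the adenosine receptor Adora3 (0.65), and on the other side Cd79b (-0.88), the chemokine Ccl19 (-0.64), the lectin-like receptor Klrh1 (-0.63) and the signalling adaptor Traf6 (-0.59). None of these 6 passed, with adjusted p from 0.136 for C4bpa to 0.259 for the other 5. Cyp1a1 differed by -0.30 ± 0.14 (adjusted p = 0.755), Aldh3a1 by -0.08 ± 0.13 and Nqo1 by 0.15 ± 0.12, and none of the 3 passed. Of the 109 genes that rose, 99 had the higher mean at the high dose, with medians of 0.61 at the high and 0.44 at the low dose. Of the 56 that fell, 48 had the lower mean at the high dose, with medians of -0.51 and -0.36. These genes were chosen by a mean that holds the high-dose values, and the share over all genes was not counted. The counts are thus no test of dose. The SD over all genes was 0.336 and 0.304 at the high dose after 7 and 13 weeks, against 0.253 and 0.226 at the low dose. After 2 weeks it was 0.248 at the high dose and 0.271 at the low dose.

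The weeks of exposure had 1 control pool each at 6 hours and were not tested. The genes that rose had medians of 0.41 after 2 weeks, 0.62 after 7 weeks and 0.56 after 13 weeks, and those that fell -0.34, -0.49 and -0.46. The low-dose 2 week sample, which stood apart, enters the first value. The widest spread over weeks among genes with both doses on 1 side in each duration was that of S100a9, with 0.59, 1.98 and 2.41. Tjp1, a tight junction protein, had -0.01, 1.27 and 0.59, Oxtr, the oxytocin receptor, -0.66, 0.61 and -0.20, and Aebp1, a matrix-associated protein, 0.30, 0.82 and -0.36. In Tjp1 the 7 week value came from the high-dose sample (2.30), as the low-dose sample had 0.24. Nr1d2 had -0.38, -1.55 and -1.29, and Cxcl14 -0.57, -0.23 and -1.37. Of these 6, S100a9, Nr1d2 and Cxcl14 were called against air.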

How the data were processed

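The values used are the log2 ratios of smoke over air deposited by the authors for each of the 18 samples. Per the labels, amplified RNA of smoke-exposed lung was labelled with Cy5 and of air lung with Cy3, and each labelled sample was hybridised to 2 PIQOR arrays. The table does not state the direction of the ratio, which was taken from those labels, and its log base was checked on the values. How the arrays were scanned, background-corrected and normalized is not given in the sources used here. Signal over background is not known either. The error of each fit comes from the spread between the values of the control pools, and the 2 arrays of a sample do not enter it separately. Of 11994 rows, 153 held no value and 9658 carried a gene symbol, of which 9614 matched the RefSeq annotation (GRCr8). Rows that repeat a probe were merged to 6124 probes, and the probes of a gene were averaged to 4616 genes.

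Smoke against air was fitted with limma 3.58.1 in R 4.3.3 (lmFit and eBayes) as 3 values per gene against 0. The hours were compared on 9 control-pool means with weeks as a covariate, because the labels give the weeks that samples share. The doses were compared as 3 differences against 0. A gene had to have all values of a comparison, tests were two-sided, and p-values were adjusted over all genes by Benjamini-Hochberg, with a threshold of 0.05. The fits were tested on simulated data. Motif searches used Python 3.11.15. The alternatives were each dose alone, a joint fit, a random block, centring, quantile normalization, fewer required durations, single probes, a fold minimum of 1.5, robust eBayes, no weeks term and leaving out each duration. Leaving out the low-dose 2 week sample was added after seeing the data.

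The comparison, the 24 lists and the tests were chosen with earlier results of these data known. Genes named are the 12 largest rises and falls with 1 sign in all 6 samples, up to 8 each way between hours, 4 each way between doses by p, up to 4 per list, 6 with the largest range over weeks, and a set of fixed genes. Others (Ahr, Cyp1b1, Gclc, Gclm, Txnrd1, Nfe2l2, Ccl11, Adgre1, Csf1r, Mpo, Retnlg, Thra, Csnk1d, Csnk1e, Pdia4, Gja5, Cyba and Cybb) were chosen after their values were seen.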

Additional observations from a re-analysis of the deposited data

Results flagged for a closer look

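The effect of smoke differed between hours by limma (adjusted p under 0.05) for the following genes, given as the difference at 6 hours from the mean of 2 and 20 hours on the log2 scale. Higher at 6 hours than this mean were the clock activator Bmal1 (2.77), the neutrophil genes S100a9 (1.06), S100a8 (0.98) and Fcnb (0.85), the connexin Gja1 (0.85), G0s2 (0.80), Spon2 (0.71), Antxr1 (0.68), Noxo1 (0.48) and Cxcl1 (0.46). Cxcl1 did not pass against 2 hours alone (adjusted p = 0.723). Lower at 6 hours than this mean were the clock genes Dbp (-3.28), Nr1d2 (-2.03), Tef (-0.97) and Bhlhe40 (-0.74). So were Aldh3a1 (-0.87), Por (-0.83), Herpud1 (-0.80), Tsc22d3 (-0.78) and Col15a1 (-0.54). Aldh3a1 averaged 5.33, 1.95 and 0.32 at 2, 6 and 20 hours, and was higher at 6 hours than at 20 hours alone (adjusted p = 5.59e-05). For the clock genes, the clock time at which the smoke and air lungs were taken is not given in the labels, and its part in these differences was not tested.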

How the results depend on the processing

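The 165 calls of smoke against air became 13 at the low dose alone and 55 with a 1.5-fold minimum. Leaving out 1 duration gave 5 (13 weeks out), 22 (2 weeks out) and 54 (7 weeks out). Without the low-dose 2 week sample they were 180, of which 144 were among the 165. The 53 calls between 6 hours and the mean of the other hours became 9 at the low dose alone, 24 at the high dose alone and 24 with the fold minimum, and 15 to 28 with 1 duration left out. Against 2 hours alone the 74 calls became 14 at the low dose alone, 31 at the high dose alone, 35 with the fold minimum and 47 after quantile normalization, and 19 to 34 with 1 duration left out. Against 20 hours the 54 calls became 9, 17 and 30 in the first 3 of these settings and 10 to 25 with 1 duration left out. Between doses the count of 0 became 1 with centring, quantile normalization, single probes or a robust fit. The difference of Aldh3a1 between hours turned from -0.87 to 0.36 after quantile normalization (limma adjusted p = 0.306), and the cause was not tested.

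The replicate block is the term for weeks. Without it the calls were 52 against the mean of the other hours, 58 against 2 hours and 44 against 20 hours, and 45 of the 52 were among the 53.

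In each fit with 1 duration left out, 4 genes passed against air (Cyp1a1, Aldh3a1, Nqo1 and Cxcl1), and 11 between hours (Aldh3a1, Bmal1, Dbp, Fcnb, G0s2, Herpud1, Nr1d2, S100a8, Spon2, Sult1a1 and Tef). With 1 pool of animals per condition and no dye swap, dye effects on values against air were not separable.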

Other observations

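The gap junction gene Gja5 (connexin 40), which joins endothelial cells, behaved like Gja1 over time, with means of -0.31 at 2 hours, 0.33 at 6 hours and -0.41 at 20 hours, and a difference at 6 hours of 0.68 ± 0.10 (limma adjusted p = 0.00461). A pair of further NADPH oxidase subunits rose against air beside Noxo1: Cybb by 0.59 (adjusted p = 0.029) and Cyba by 0.51 (adjusted p = 0.0138). The chemokine Ccl11, which attracts eosinophils, fell by 0.43 at 6 hours.

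Of 4867 probes tested on their own at 6 hours, 215 passed limma against air, 132 higher and 83 lower. No gene symbol was given for 922 of the 4867. Of these, 35 passed, 14 higher and 21 lower, with means from -0.77 to 0.81.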
